A study of Mus musculus with 366 samples.

Results

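The 37 genes described here are mouse homologs of genes at human loci associated with coronary artery disease, taken by symbol from a fixed list of names. A gene was read from the probe set under its symbol (Plpp3 also under its older symbol Ppap2b), and where several probe sets carried the symbol, from the one with the highest mean. Of the 37 homologs, 33 had a probe set and were measured among 17097 genes in all; Cnnm2, Ggcx, Rasd1 and Slc22a3 were not analysed here. Several of the homologs, among them Snx10, Brap, Hip1, Atxn2, Trip4, Smg6, Nt5c2, Camsap2, Fes, Mras and Ube2z, are on the study's own list of homologs related to lesion area in these mice, so that they are no independent choice.

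Total RNA of the aorta was hybridised with 1 array per mouse, on 366 arrays from 101 strains of female mice aged 24 weeks. Every mouse was the F1 offspring of an inbred strain and of C57BL/6J males that carried the human ApoE-Leiden and CETP transgenes, and was selected to carry both. Each animal, the C57BL/6J F1 included, thus held at least 1 C57BL/6J haplotype and both transgenes, and strains differed in the other parental haplotype. The mice ate chow for 8 weeks and then a Western diet for 16 weeks, and no group without the transgenes or the Western diet was among the arrays. The inbred parents fell into 5 families. The BXD set, derived from C57BL/6J and DBA/2J, gave 36 strains and 124 arrays, and the AXB/BXA set, derived from A/J and C57BL/6J, gave 21 strains and 73 arrays. The CXB set, from BALB/cByJ and C57BL/6J, had 9 strains and 32 arrays, the BXH set, from C57BL/6J and C3H/HeJ, had 4 strains and 15 arrays, and 31 other inbred strains had 122 arrays. A strain had a median of 4 arrays and at most 8, and 6 strains had 1 array each. Values are log2 intensities, and a difference of 1 is a doubling.

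Coronary artery disease arises from atherosclerosis, in which lipoproteins enter the artery wall and macrophages take them up, while smooth muscle cells leave the contractile state and build a fibrous cap under the endothelium. Human association loci mark stretches of the genome and not single genes, so that a locus may name several neighbours. Some of the homologs act on lipoproteins in the liver, others on signalling, adhesion and matrix in the vessel wall, and others in membrane traffic or in the nucleus, with no role in arteries that is settled.

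The samples held the cell types of an artery with its surrounding fat. The mean of the 6 measured smooth muscle markers, Acta2 and Myh11 among them, ran from 6.01 to 11.4 over the arrays, that of the 10 macrophage markers from 5.51 to 7.68, and that of the 8 endothelial markers from 6.19 to 8.16. Markers of brown adipocytes lay between 11.6 and 12.6 on every array, although the study's methods state that peri-adventitial fat was removed. Striated muscle markers ran from 3.18 to 12.7, with 132 arrays above 8, and hepatocyte markers from 2.55 to 9.68 around a median of 2.79, with 40 arrays in 27 strains standing apart on the high side. In bulk tissue, fewer cells of a type and less RNA per cell cannot be told apart, which holds for every value below. The labels give no batch for the arrays.

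The homologs differed among strains, each to its own extent. All 33 passed limma's F test among the 95 strains with at least 2 arrays (360 arrays, Benjamini-Hochberg over all probe sets), but so did 80.6% of all genes, so that the count by itself says little about the homologs. The share of variance among strains, the intraclass correlation of mice of a strain, had a median of 31.2% over the homologs and of 20.8% over all genes. Brightness mattered for this comparison. For the 22 homologs with a mean above 5 the median share was 31.7%, against 32.0% for all genes that bright, and for the 11 dimmer ones it was 28.8%, against 12.4% for all dim genes, of which 67.2% passed.

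**Figure D1:**
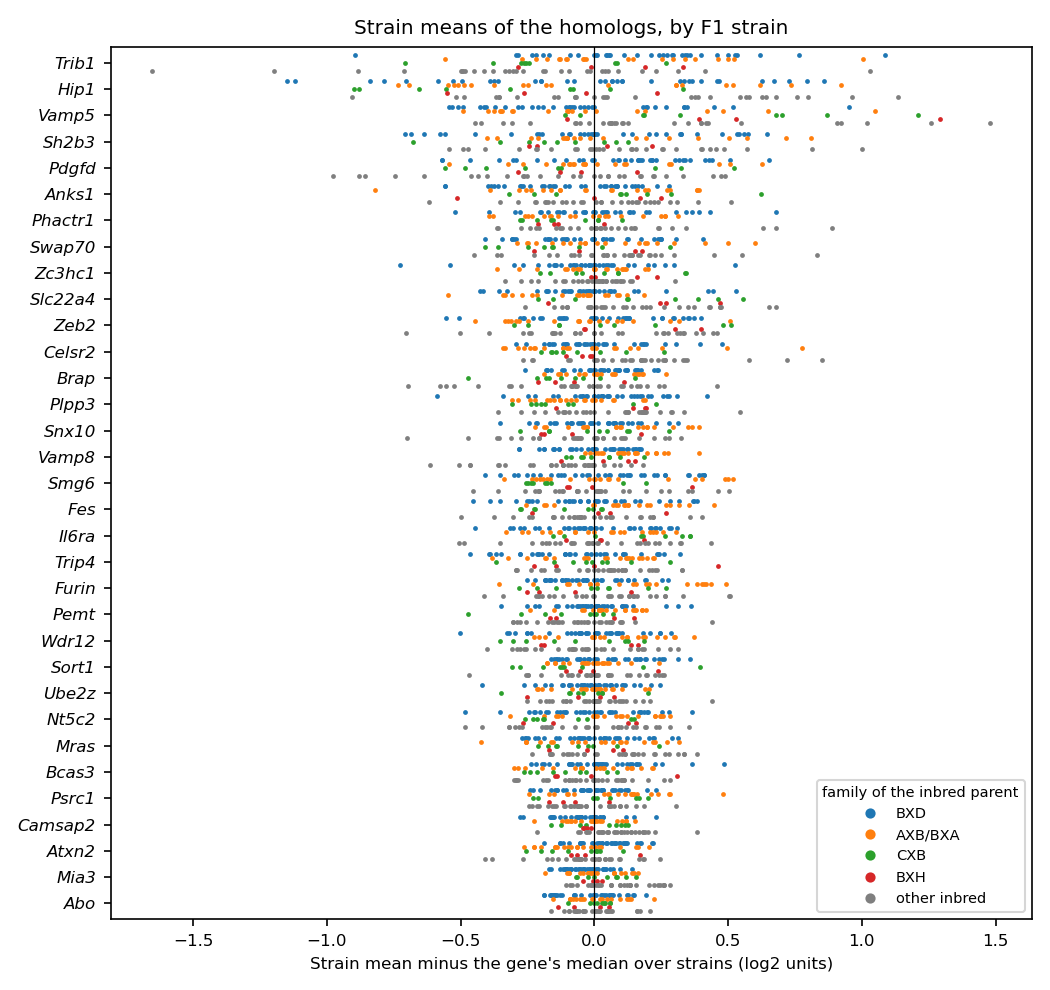
Strain means of the 33 homologs over 101 F1 strains, each minus the gene's own median over strains (horizontal axis, log2 units), with 1 row per gene in order of range and 1 dot per strain coloured by family. Trib1 had the widest range (2.74), followed by Hip1 (2.28) and Vamp5 (2.02), and Abo the narrowest (0.41).

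Among the homologs known for lipid and lipoprotein handling, 5 were measured, with a median share of 15.5% and a range from 12.9% to 28.9%. Trib1, a pseudokinase that steers the degradation of transcription factors and sets plasma lipids from the liver, had the largest share of the 5. Its strain means ran from 4.11 ± 0.06 (SD, n = 4) in LG/J through a median of 5.77 to 6.85 in BXD22/TyJ, which had 1 array, with a share of 28.9%. Among strains with at least 3 arrays NZB/BlNJ was highest, at 6.80, so that the range hardly rested on the lone array. Sort1, the sorting receptor sortilin, was bright in every strain, from 8.96 ± 0.18 (SD, n = 4) in SJL/J to 9.83 in CXB11/HiAJ (1 array), with a share of 19.1%. Its neighbours Psrc1, a microtubule-binding protein, and Celsr2, a cadherin of planar cell polarity, were dim, with means of 2.96 and 3.32 and shares of 15.5% and 12.9%. The highest mean of Celsr2, in NOD/ShiLtJ, was 4.13 ± 1.20 (SD, n = 2) and thus came from 2 mice that lay far apart. Pemt, which makes phosphatidylcholine in the liver, had a mean of 3.24 and a share of 13.5%. The shares of these 3 dim genes lay near the median of all dim genes, 12.4%, and those of Trib1 and Sort1 below that of all genes with a mean above 5, 32.0%.

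The 12 homologs of signalling and the vessel wall had a median share of 33.5%, from 22.1% to 48.8%. Sh2b3, an adaptor that restrains cytokine signalling, led them. Its strain means rose from 4.93 ± 0.42 (SD, n = 4) in BXD75/RwwJ through 5.64 to 6.64 ± 0.23 (SD, n = 4) in AKR/J, a 3.27-fold range, and strain accounted for 48.8% of the variance (95% interval 38.2 to 59.3, adjusted p = 7.58e-22). Zeb2, a zinc finger repressor in the TGF-beta pathway, ran from 6.59 ± 0.62 (SD, n = 2) in 129X1/SvJ to 7.80 ± 0.32 (SD, n = 4) in CXB6/ByJ, with a share of 44.1% (33.3 to 55.1, adjusted p = 4.51e-18). Brap, a ubiquitin ligase that tunes Ras signalling, ran from 7.17 ± 0.10 in LG/J to 8.32 ± 0.10 in NZW/LacJ (SD, n = 4 each), and its share was 43.0% (32.2 to 54.1, adjusted p = 3.52e-17). The strains at both ends of Brap held mice that were close to each other, which was not so for Zeb2.

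Pdgfd, a growth factor that acts on mural cells through the PDGF beta receptor, spanned 6.20 ± 0.52 (SD, n = 2) in 129X1/SvJ to 7.83 ± 0.03 (SD, n = 2) in BXD18/TyJ, a 3.10-fold range with a share of 36.2% (25.3 to 47.7, adjusted p = 6.72e-13). Furin, the protease that cleaves proproteins of growth factors and receptors, spanned 5.57 ± 0.08 in LG/J to 6.48 ± 0.36 in SWR/J (SD, n = 4 each), with a share of 36.0% (25.1 to 47.5, adjusted p = 1.11e-12). Its neighbour Fes, a tyrosine kinase of myeloid cells, had a share of 33.3%. Of the remaining members, Mras, a Ras-like GTPase, had a share of 33.8%, Anks1, an adaptor of Eph receptors, 32.5%, and Plpp3, an enzyme of the cell surface that breaks down lysophosphatidic acid, 31.7%. Phactr1, which binds actin and protein phosphatase 1, had 29.3% at a mean of only 3.11, Swap70, an actin-binding regulator of Rac, 24.8%, and Il6ra, the interleukin 6 receptor, 22.1%.

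**Figure D2:**
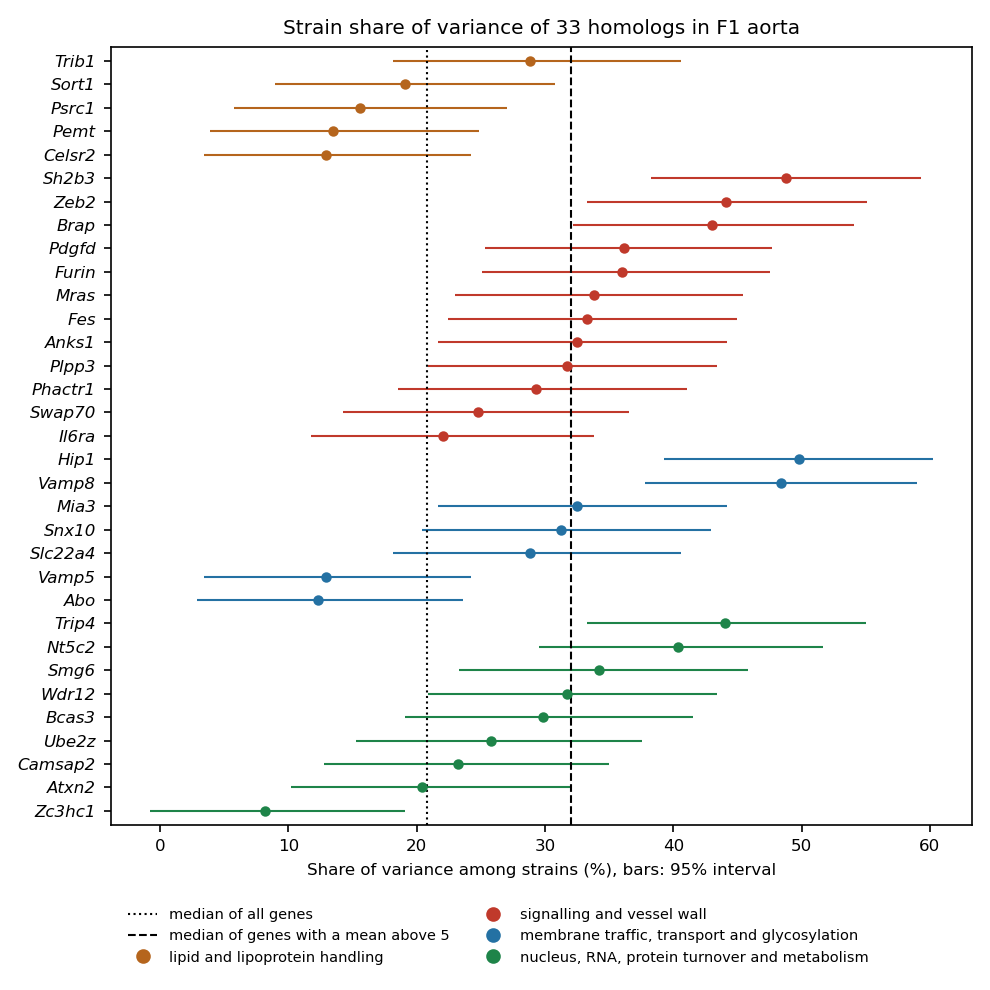
Share of variance among strains in percent (horizontal axis), with 95% intervals, for the 33 homologs grouped by role and ordered within a group. Vertical lines are the medians of all genes (20.8%) and of genes with a mean above 5 (32.0%); Hip1, Sh2b3 and Vamp8 stand farthest to the right, at 49.8%, 48.8% and 48.4%.

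In membrane traffic, transport and glycosylation, 7 homologs had a median share of 31.2%. Hip1, which links clathrin-coated pits to actin, had the largest share of all homologs, 49.8% (39.3 to 60.2, adjusted p = 9.47e-23). Its lowest strain mean was 4.99 in BXD22/TyJ (1 array), its median 6.14 and its highest 7.27 ± 0.06 (SD, n = 2) in CE/J. Vamp8, a SNARE protein of granule and lysosome fusion, had a share of 48.4% (37.8 to 59.0, adjusted p = 3.42e-21) within a narrow range, from 8.36 ± 0.12 (SD, n = 4) in KK/HlJ to 9.37 ± 0.16 (SD, n = 2) in AXB10/PgnJ. Mia3, which loads collagen into vesicles at the endoplasmic reticulum, spanned only 7.56 to 8.02 and yet had a share of 32.5%. Snx10, a sorting nexin of endosomes, had 31.2%, Slc22a4, an ergothioneine transporter, 28.8%, and Abo, the blood group glycosyltransferase, 12.3% at a mean of 2.36, which is at percentile 2.70 of all genes.

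Vamp5, a SNARE protein known from muscle cells and the neighbour of Vamp8, was the homolog most related to striated muscle markers. Its range was wide, from 5.91 ± 0.07 (SD, n = 3) in BXD51/RwwJ to 7.93 ± 1.59 (SD, n = 3) in A/J, while its share was only 12.9%. The 3 A/J arrays read 6.15, 9.19 and 8.46, and on the same arrays the mean of the 5 measured striated muscle markers was 4.34, 12.6 and 12.1. In BXH19/TyJ, Vamp5 read 6.62, 8.98 and 7.63 beside striated muscle levels of 4.87, 12.5 and 11.2. In these 2 strains high Vamp5 and high striated muscle markers fell on the same mice. In BALB/cJ 1 of the 4 arrays did not follow, with Vamp5 at 6.71 beside a striated muscle level of 10.2, while another read 6.80 beside 4.36. Among arrays of a strain Vamp5 and the striated muscle score correlated with r = 0.81, and over the 101 strain means with r = 0.74 and rho = 0.74 (limma regression, adjusted p = 1.31e-16; r = 0.73 without the 2 strains farthest from the median score). Of the 33 homologs, 1 rose with that score, Vamp5, and 1 fell, Sort1 (r = -0.39), against 3.10% and 2.67% of all genes. Among arrays of a strain other homologs went down with the score, with r = -0.44 for Snx10 and -0.38 for Brap and Sort1. With each array adjusted by the slope of the striated muscle score within strains, the share of Vamp5 was 21.7%. The same adjustment took Snx10 from 31.2% to 38.6% and Camsap2 from 23.2% to 27.4%. The regression and this adjustment were chosen after the values had been seen.

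The 9 homologs that act in the nucleus, on RNA, in protein turnover or in metabolism had a median share of 29.8%. Trip4, a transcriptional coactivator, ran from 5.88 ± 0.16 in BXD5/TyJ to 6.81 ± 0.07 in BXH8/TyJ (SD, n = 4 each) and had a share of 44.0% (33.2 to 55.0, adjusted p = 6.78e-18). Nt5c2, a nucleotidase of the cytosol, ran from 4.12 in BXD22/TyJ (1 array) to 4.97 ± 0.10 (SD, n = 4) in BXD48/RwwJ, with a share of 40.4% (29.5 to 51.7, adjusted p = 2.24e-15). Smg6, the endonuclease of nonsense-mediated decay, ran from 3.29 ± 0.22 in BUB/BnJ to 4.26 ± 0.17 in BXA8/PgnJ (SD, n = 4 each), with a share of 34.2% (23.3 to 45.8, adjusted p = 1.05e-11). Wdr12, of ribosome assembly, had a share of 31.7%, and Bcas3, a cytoskeletal protein of moving endothelial cells, 29.8%. Ube2z, a ubiquitin-conjugating enzyme, had 25.8%, Camsap2, which binds the minus ends of microtubules, 23.2%, and Atxn2, an RNA-binding protein, 20.4%. Zc3hc1, a nuclear pore protein, had the smallest share of all, 8.17%, with an adjusted p of 0.0448.

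A few strains held many of the extremes, but the share of all genes at an extreme in these strains was not computed. LG/J had the highest mean of Slc22a4, Ube2z and Camsap2 and the lowest of Trib1, Furin, Brap, Snx10 and Atxn2, and thus 8 of the extreme values. AKR/J had the highest mean of Phactr1, Mras, Swap70, Sh2b3, Il6ra and Mia3. LG/J also had the highest smooth muscle score of the 101 strains (1.94) and the lowest brown adipocyte score (-0.53). AKR/J ranked 95 from the lowest on the smooth muscle score and 100 on the endothelial score. Whether these marker levels take part in the extremes was not tested strain by strain.

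Fewer homologs passed a test among families than among strains, as was so for all genes. These tests rest on unlike numbers of groups and arrays. Strain means differed among the 5 families for 6 of the 33 homologs, against 10% of all genes (limma F test on strain means). Vamp8 had the smallest p, with a mean of 9.10 ± 0.11 in the AXB/BXA set (SD, n = 21 strains) and 8.84 ± 0.20 in the other inbred strains (n = 31), a 1.20-fold difference (adjusted p = 0.000142). Mia3 was highest in the other inbred strains, at 7.83 ± 0.12, and lowest in the BXD set, at 7.70 ± 0.07 (adjusted p = 0.00127). Camsap2 had the same order, with 8.68 ± 0.11 against 8.56 ± 0.10 (adjusted p = 0.00392). Slc22a4 was highest in the BXH set, at 3.70 ± 0.27 (n = 4 strains), and lowest in the AXB/BXA set, at 3.40 ± 0.18 (adjusted p = 0.00506). Trib1 went from 5.93 ± 0.36 in the BXD set to 5.53 ± 0.49 in the other inbred strains (adjusted p = 0.0140). Vamp5 had the widest gap, 6.98 ± 0.58 in the BXH set against 6.40 ± 0.34 in the BXD set (1.5-fold, adjusted p = 0.0164). It is also the homolog that rose with the striated muscle score over strain means. The families overlapped for each of the 6 genes.

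A split of the same arrays by family, which is no independent repeat, also gave strain differences in the larger sets. In the BXD set 21 homologs differed among strains, against 45.3% of all genes, and Zeb2 had the largest share, 43.2%. In the AXB/BXA set 20 did, against 44.0%, led by Sh2b3 at 59.8% and Trip4 at 58.9%. The CXB set gave 5, against 13.8% of genes, which were Pdgfd (67.2%), Hip1 (54.5%), Zeb2 (46.7%), Anks1 (45.8%) and Trip4 (42.0%). The BXH set, of 4 strains, gave 4, against 8.31%, which were Anks1 (72.4%), Trip4 (69.3%), Nt5c2 (66.8%) and Bcas3 (65.0%). In the other inbred strains 30 differed, against 67.2% of genes, with Vamp8 at 59.6%. Trip4 passed in all 5 families. In the BXD and AXB/BXA sets the median share over the homologs was 22.9% and 25.4%, against 15.0% and 19.3% over all genes. With 1 mouse number left out of every strain, the BXD count lay between 12 and 16, the AXB/BXA count between 9 and 15, the CXB count was 2 each time and the BXH count lay between 0 and 2.

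The F1 of A/J, BALB/cJ, BALB/cByJ, C3H/HeJ and DBA/2J were then compared with the C57BL/6J F1 (6 arrays), in 1 limma fit over all strains. The study names BALB/cJ, and not BALB/cByJ, among the progenitors of its recombinant sets, and both lines are counted as progenitors here. All 5 comparisons share the 6 C57BL/6J arrays. Their smooth muscle level ran from 6.01 to 9.14 and overlapped with arrays of A/J (from 8.94) and DBA/2J (from 8.08). The means of all 6 markers were lower in C57BL/6J than in each of the 5 progenitors, whose mean levels were 9.33 in A/J, 9.84 in BALB/cJ, 10.1 in BALB/cByJ, 9.73 in C3H/HeJ and 8.99 in DBA/2J, against 7.73 in C57BL/6J. Each call was therefore also computed with arrays adjusted by the slope of the smooth muscle score within strains, an alternative chosen after the data were seen.

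Against A/J (3 arrays), 2 homologs passed, both lower in A/J, where 6.43% of all genes passed. Trip4 read 5.98, 6.01 and 6.17 in A/J, and 6.50, 6.61 and 6.63 as the lowest, the median and the highest of the C57BL/6J arrays. The groups did not overlap, and the difference was -0.53 ± 0.13 (SE, adjusted p = 0.00529, 1.44-fold). It was -0.49 without A/J replicate 3, where the adjusted p was 0.0603. Camsap2 was lower by 1.26-fold (-0.34 ± 0.10, adjusted p = 0.0332), with arrays that overlapped, and this call was lost without C57BL/6J replicate 3 or 5 or A/J replicate 2 or 3 (adjusted p up to 0.352). Under the smooth muscle adjustment both calls held and 6 homologs passed in all, but the share of all genes that passed there was not computed. Macrophage and fibroblast markers were lower in A/J too, all 10 and all 6 of them, with levels of 5.92 against 6.77 and 6.84 against 7.27, and their part in these differences was not tested.

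Against BALB/cJ (4 arrays), 6 homologs passed, all lower in BALB/cJ, where 7.83% of genes passed. Snx10 read 8.94, 9.10, 9.23 and 9.61 in BALB/cJ and from 9.60 to 9.84, with a median of 9.79, in C57BL/6J. The groups overlapped only through the highest BALB/cJ array, and the difference was -0.52 ± 0.14 (SE, adjusted p = 0.00988). Nt5c2 read 4.01, 4.09, 4.27 and 4.35 in BALB/cJ and from 4.53 to 5.01, with a median of 4.66, in C57BL/6J. These groups stood apart, with a difference of -0.52 ± 0.13 (SE, adjusted p = 0.00311) that passed whichever array was left out. Wdr12 (-0.45 ± 0.13, adjusted p = 0.0218), Trip4 (-0.44 ± 0.12, adjusted p = 0.0129) and Brap (-0.38 ± 0.13, adjusted p = 0.0424) did not overlap between the groups either, whereas Bcas3 did (-0.38 ± 0.12, adjusted p = 0.0369). Of the 10 fits that left out 1 array, Brap lost its call in 8, Bcas3 in 7, Wdr12 in 4, and Snx10 and Trip4 in 1 each. Under the smooth muscle adjustment Nt5c2, Trip4 and Bcas3 passed, while Snx10 was -0.38 (adjusted p = 0.0571), Wdr12 -0.32 (0.0933) and Brap -0.28 (0.128). With all probe sets of a gene averaged, Trip4 was -0.16 and its adjusted p was 0.0857. In BALB/cJ, 0 of the 6 fibroblast and 1 of the 10 macrophage markers had a mean above that in C57BL/6J. The levels were 7.03 against 7.27 and 6.35 against 6.77, and their part in these differences was not tested.

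BALB/cByJ (3 arrays), a close relative of BALB/cJ, gave no call by limma, where 1.97% of genes passed. At an unadjusted p under 0.05 it gave 1, Sh2b3, higher by 0.47 (adjusted p = 0.336). Differences from C57BL/6J that BALB/cJ showed were near 0 here for Nt5c2 (-0.01 ± 0.14), Snx10 (-0.07 ± 0.16) and Trip4 (0.09 ± 0.13).

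The F1 of the 2 BALB/c lines were therefore compared directly, a comparison that was chosen after the values had been seen. It gave 4 of the 33 homologs, all lower in BALB/cJ, where 2.25% of genes passed. Bcas3 had means of 5.22 in BALB/cJ and 5.77 in BALB/cByJ (-0.55 ± 0.15, SE, adjusted p = 0.0232), and Trip4 had 6.15 and 6.67 (-0.53 ± 0.14, adjusted p = 0.0259). Brap had 7.59 and 8.11 (-0.52 ± 0.15, adjusted p = 0.0368), and Nt5c2 had 4.18 and 4.69 (-0.51 ± 0.15, adjusted p = 0.0426). None of the 4 overlapped between the lines, but neither did Zeb2, Mras and Hip1, which did not pass (adjusted p = 0.134, 0.412 and 0.524). Striated muscle markers differed as well, with a level from 4.36 to 12.5 in BALB/cJ and from 3.34 to 6.61 in BALB/cByJ. With arrays adjusted by the striated muscle score the differences were -0.54 for Bcas3 (adjusted p = 0.0325), -0.49 for Trip4 (0.0515), -0.43 for Nt5c2 (0.103) and -0.40 for Brap (0.112), and 1 of the 4 passed. No call was left when arrays were centred on their median or when the 2 lines were fitted alone, and from 0 to 3 were left without 1 of the arrays.

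Against C3H/HeJ (8 arrays), 4 homologs passed, where 11.7% of genes passed. Sh2b3 lay from 5.67 to 6.49 in C3H/HeJ, with a median of 6.04, and from 4.94 to 5.78 in C57BL/6J, with a median of 5.53. It was 1.59-fold higher in C3H/HeJ (0.67 ± 0.18, SE, adjusted p = 0.00502), and 7 of the 8 arrays were above every C57BL/6J array. Plpp3 was higher as well (0.40 ± 0.12, adjusted p = 0.0175), while Vamp8 (-0.42 ± 0.09, adjusted p = 0.000159) and Furin (-0.34 ± 0.12, adjusted p = 0.0455) were lower. All 8 endothelial markers were higher in C3H/HeJ too, with a level of 7.45 against 7.0, and Sh2b3 and Plpp3 rose with the endothelial score over strains (r = 0.79 and 0.70). The part of these markers in the differences was not tested. Under the smooth muscle adjustment only Vamp8 kept its call (-0.30, adjusted p = 0.00723), and Sh2b3 was 0.32 (adjusted p = 0.219), Plpp3 0.12 (0.575) and Furin -0.28 (0.144). Furin lost its call in 10 and Plpp3 in 3 of the 14 fits that left out 1 array.

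Against DBA/2J (5 arrays), 2 homologs passed, both lower in DBA/2J, where 4.45% of genes passed. Zeb2 read 6.96, 6.97, 7.06, 7.10 and 7.15 in DBA/2J, against 7.11, 7.20, 7.82, 7.82, 8.03 and 8.06 in C57BL/6J. The DBA/2J arrays were close to each other, and the lowest C57BL/6J array fell among them. The difference was -0.62 ± 0.15 (SE, adjusted p = 0.00393), and it was -0.76 (adjusted p = 1.49e-05) under the smooth muscle adjustment. With all 4 probe sets of Zeb2 averaged it was -0.21 (adjusted p = 0.499). Vamp8 was lower by 1.27-fold (-0.35 ± 0.10, adjusted p = 0.0193) with no overlap, which became -0.27 (adjusted p = 0.0525) under that adjustment and -0.31 (adjusted p = 0.0618) without C57BL/6J replicate 1. Without the arrays high in hepatocyte markers, of which DBA/2J had 2 and C57BL/6J 1, it was -0.30 (adjusted p = 0.251).

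**Figure D3:**
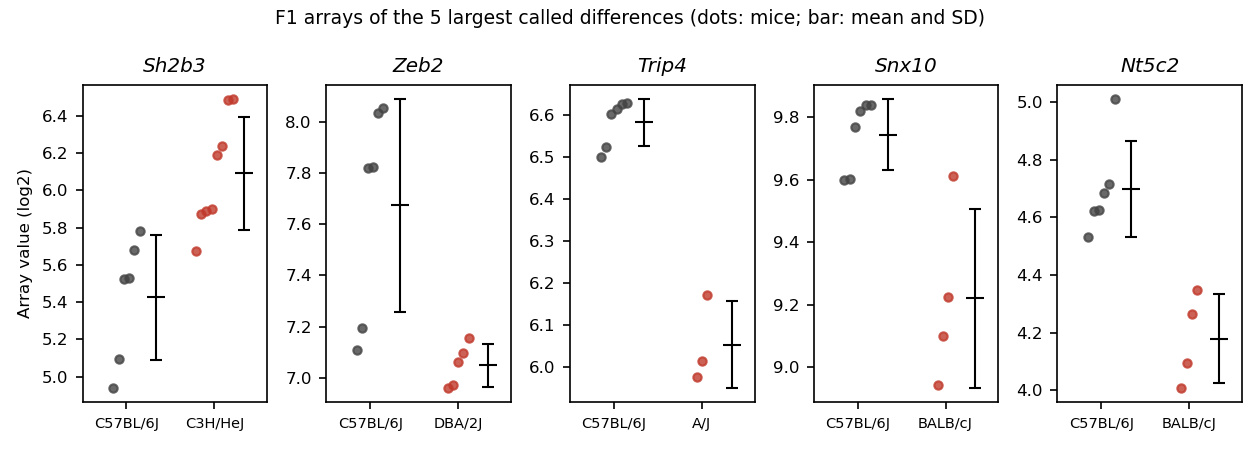
Array values (vertical axes, log2) of the C57BL/6J F1 and of 1 progenitor F1 per panel, for the 5 largest differences that passed; dots are mice and bars the mean and SD. Trip4 against A/J and Nt5c2 against BALB/cJ do not overlap, while Sh2b3 against C3H/HeJ, Zeb2 against DBA/2J and Snx10 against BALB/cJ overlap at their edges.

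The means of the recombinant strains were set beside those of their progenitors for the called genes of the 2 large sets. For Zeb2, 19 of the 36 BXD strains lay nearer the DBA/2J F1 and 17 nearer the C57BL/6J F1, over a range from 6.74 to 7.69 whose widest gap was 0.23 and had 2 strains below it. For Trip4, 8 of the 21 AXB/BXA strains lay nearer A/J and 13 nearer C57BL/6J, over 5.96 to 6.57, and the widest gap, 0.11, had 6 strains below it. Vamp8 in the BXD set had 19 strains nearer DBA/2J and 17 nearer C57BL/6J, with a widest gap of 0.07, and Camsap2 in the AXB/BXA set had 8 nearer A/J and 13 nearer C57BL/6J, with a widest gap of 0.10. For Vamp8 2 strains and for Camsap2 1 strain lay below that gap. These are counts of strain means, with no test, and no marker genotype was used.

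Smooth muscle and endothelial markers moved with many of the homologs, as they did with many of all genes. A score was taken per strain as the mean of the centred log2 values of a list of markers that holds none of the homologs, and strain means were regressed on it with limma. With the smooth muscle score 15 homologs rose and 8 fell, against 22.2% and 35.9% of all genes. With the endothelial score 16 rose and 3 fell, against 25.8% and 31.0%, and with the fibroblast score 12 rose and 5 fell, against 19.2% and 14.6%. The macrophage score gave 5 that rose and 2 that fell, against 9.35% and 4.81%, but 1 in all among strains with at least 3 arrays. The adipocyte score gave 2 that rose and 0 that fell (1.28% and 0.632% of genes), and the hepatocyte score gave none by limma in either direction (1.45% and 0.333%). Without the arrays high in hepatocyte markers the adipocyte count was 1 and the hepatocyte count 11. The share of all genes without those arrays was not computed, so that these counts cannot be set against it. The median r with the smooth muscle score was 0.18 over the homologs and -0.10 over all genes, and with the endothelial score 0.21 and -0.05. The scores themselves were related, with r = 0.63 between smooth muscle and endothelial and r = -0.47 between smooth muscle and brown adipocyte scores, so that these counts describe overlapping patterns.

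Hip1 followed the smooth muscle score most closely, with r = 0.84 and rho = 0.84 over 101 strains (slope 0.44 ± 0.03, SE; adjusted p = 7.04e-27). The relation was 0.83 without the 2 strains farthest from the median score, and it was 0.86 in the BXD, 0.84 in the AXB/BXA, 0.88 in the CXB and 0.81 in the other inbred strains. Hip1 was also the homolog with the highest r on the fibroblast score (r = 0.49, rho = 0.52, adjusted p = 4.31e-06). Sh2b3 followed the endothelial score most closely (r = 0.79, rho = 0.79, adjusted p = 4.37e-20), with 0.76 without the 2 farthest strains and from 0.52 in the CXB to 0.88 in the other inbred strains. The permutation p of these r was 1e-05, the smallest that 100000 resamples can give, and 3e-05 after adjustment over the 12 relations of this kind. Phactr1 (r = 0.63) and Plpp3 (r = 0.69) rose with the smooth muscle score too, and Swap70 with the endothelial score (r = 0.71).

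On the falling side, Snx10 had the lowest r with the smooth muscle score (r = -0.46, rho = -0.42, adjusted p = 7.27e-06). This was -0.61 in the BXD and -0.67 in the AXB/BXA strains, but 0.02 in the CXB strains. Abo had the lowest r with the endothelial score (r = -0.41, rho = -0.42, adjusted p = 9.90e-05), at a level where little signal is measured. Trib1 fell with the fibroblast score (r = -0.40, rho = -0.36, adjusted p = 0.000445). With the macrophage score Wdr12 rose (r = 0.40, rho = 0.34, adjusted p = 0.00134) and Anks1 fell (r = -0.31, rho = -0.27, adjusted p = 0.0182), and the slope of Wdr12 was -0.05 among arrays within strains. With the adipocyte score Slc22a4 rose (r = 0.53, rho = 0.50, adjusted p = 1.78e-05), and Atxn2 had the lowest r (-0.27, adjusted p = 0.117). The hepatocyte score gave r = 0.23 for Psrc1 (adjusted p = 0.170) and r = -0.26 for Vamp8 (adjusted p = 0.128), neither of which passed.

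After the adjustment by the smooth muscle score within strains, 31 of the 33 homologs passed the strain test, against 77.8% of all genes, and the median share was 28.5%, against 18.6% over all genes. The share of Hip1 was then 43.2%, that of Sh2b3 40.8% and that of Plpp3 22.3%, while Pdgfd and Zeb2 had larger shares than before, 41.1% and 47.9%. Celsr2 (adjusted p = 0.0522) and Zc3hc1 (adjusted p = 0.0578) no longer passed.

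**Figure D4:**
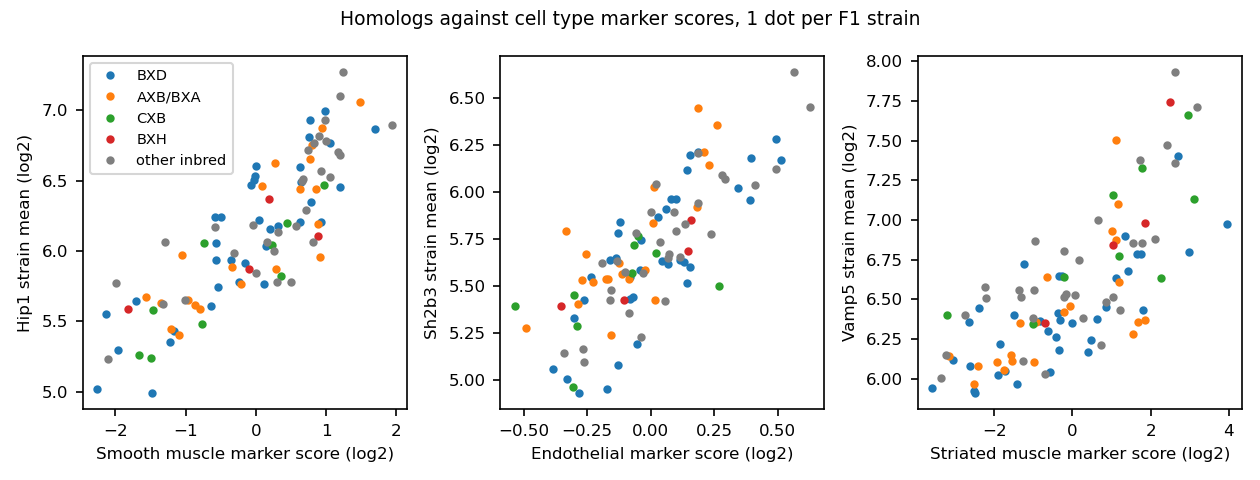
Strain means of Hip1, Sh2b3 and Vamp5 (vertical axes, log2) against the smooth muscle, endothelial and striated muscle marker scores of the same strains (horizontal axes, log2), with 1 dot per F1 strain coloured by family. The 3 relations have r = 0.84, 0.79 and 0.74.

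Hip1 and Sh2b3 varied together as well (r = 0.77 over strain means), and a start region of each is given here to show what these 2 genes share and do not share in sequence. Each window holds 250 bases before and 50 bases after a transcript start annotated by RefSeq on GRCm38.p6, read 5′ to 3′ on the gene's own strand, which is the minus strand for both. For Hip1 it is the farther upstream of 2 windows, at chr5:135545073-135545372, whose start lies 201 bases inside the annotated gene. For Sh2b3 it is the only window, at chr5:121836055-121836354, and its start lies 1541 bases inside the gene, so that a start farther upstream is not shown. Capitals mark GC boxes (GGGCGG on either strand), the binding motif of Sp1.
Hip1: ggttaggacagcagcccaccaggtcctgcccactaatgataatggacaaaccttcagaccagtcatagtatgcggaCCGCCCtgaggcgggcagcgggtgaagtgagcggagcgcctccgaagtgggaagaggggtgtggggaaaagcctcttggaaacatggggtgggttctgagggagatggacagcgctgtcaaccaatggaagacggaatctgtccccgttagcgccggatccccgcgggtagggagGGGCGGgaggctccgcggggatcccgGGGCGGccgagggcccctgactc
Sh2b3: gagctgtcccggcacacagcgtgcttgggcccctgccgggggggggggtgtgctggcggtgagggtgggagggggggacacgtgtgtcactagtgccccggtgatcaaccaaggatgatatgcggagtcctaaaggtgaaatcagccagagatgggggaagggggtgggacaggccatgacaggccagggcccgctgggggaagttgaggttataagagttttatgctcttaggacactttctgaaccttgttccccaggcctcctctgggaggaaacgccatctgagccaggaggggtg
The Hip1 window held 3 GC boxes, 1 of them as the complement, and the Sh2b3 window held none. Of the 33 homologs, 30 had a window, 13 of them several. In the window farthest upstream of each gene, GGGCGG on either strand was present for 19 of the 30 (63.3%), and in any window for 22. In that upstream window it was present for 9708 of the 27025 genes with a window (35.9%), measured on the array or not. The share over the measured genes alone was not computed, so that the 2 percentages are of unlike sets. The CArG box, the motif of serum response factor at contractile genes, was in 0 of the 30 windows and in 1.59% of all. A match of letters is no measured binding site, and start sites that the table lacks were not searched.

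Neighbours at a locus were then compared over strain means. Among the 8 pairs measured, Brap and Atxn2, which lie side by side at the SH2B3 locus, came first. Their strain means had r = 0.39 and rho = 0.26, for which 100000 permutations gave p-values of 0.00056 and 0.040 after adjustment for 8 pairs, and dropping the farthest 2 strains left r = 0.29. Within families the value was 0.61 in the other inbred and 0.46 in the CXB strains, but 0.10 in the BXD and -0.14 in the AXB/BXA strains. Fes and Furin had r = 0.27 (adjusted permutation p = 0.029) and rho = 0.29 (0.031), and r was 0.27 once the farthest 2 strains were dropped. It was 0.44 in the other inbred strains and 0.06 in the BXD strains. For both pairs the relation thus did not hold within the larger recombinant sets. Sort1 and Psrc1 had r = 0.01 and Sort1 and Celsr2 r = 0.07, and Psrc1 and Celsr2 had 0.02. Brap and Sh2b3 had r = 0.11, Atxn2 and Sh2b3 0.05, and Vamp5 and Vamp8 -0.04. The adjusted permutation p of these 6 pairs lay between 0.69 and 0.93. Psrc1 and Celsr2, with means of 2.96 and 3.32, lay near the array medians, so that their 3 pairs can show little at this signal.

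Over all 528 pairs of homologs the median r was 0.10, with 40 pairs above 0.5 and 3 below -0.5. The highest were Phactr1 and Hip1 (0.78), Sh2b3 and Hip1 (0.77) and Swap70 and Sh2b3 (0.73), all of which rose with the smooth muscle or the endothelial score. A pair outside this group was Brap and Snx10 (0.62). The lowest were Abo with Smg6 (-0.59), with Sh2b3 (-0.55) and with Hip1 (-0.51). Abo had a mean of 2.36, where little signal is measured, and the order of strains of Smg6 depends on the probe set. These r describe strain means that share arrays and marker levels and carry no test.

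**Figure D5:**
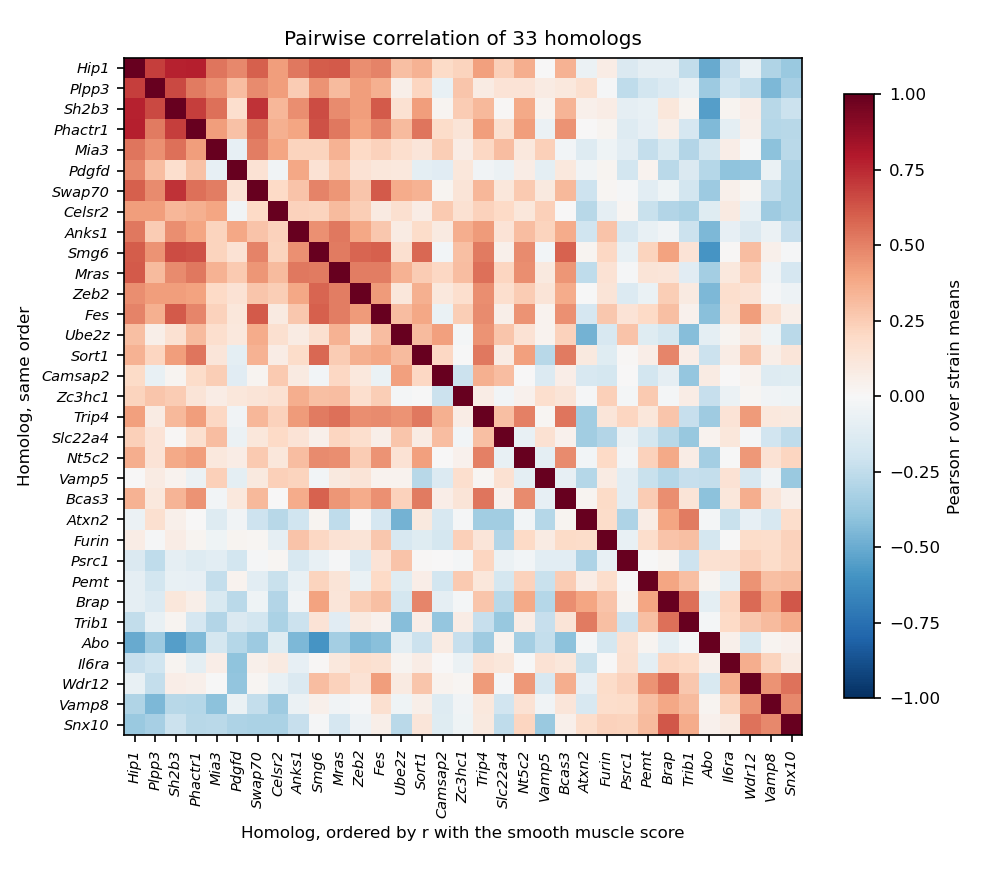
Pearson r over 101 strain means for each pair of the 33 homologs (colour, from -1 in blue to 1 in red), with genes on both axes in the order of their r with the smooth muscle score. The block at the upper left holds Hip1, Plpp3, Sh2b3 and Phactr1, and Abo, toward the other end, is blue against it, down to r = -0.59 with Smg6. Abo was dim, with a mean of 2.36.

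Further genes at human coronary disease loci, which are not among the homologs above, served as a comparison, with 34 of them measured. The strain test was passed by 28 of the 34 (82.4%), against 80.6% of all genes. The median share of the 34 was 34.6%, against 20.8% over all genes and 32.0% over genes with a mean above 5. The largest shares were those of Mfge8, the milk fat globule protein of the artery wall (50.8%, adjusted p = 1.22e-23), and Col4a1, a collagen of basement membranes (49.7%, adjusted p = 1.38e-22). The smallest were those of Apob, the apolipoprotein of low-density lipoproteins (-0.67%, adjusted p = 0.581), and Tcf21, a transcription factor of adventitial cells (3.19%, adjusted p = 0.241). The largest shares of the homologs, 49.8% for Hip1 and 48.8% for Sh2b3, lay close to those of Mfge8 and Col4a1.

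How far a value rests on its probe set can be seen from the other probe sets. The 33 homologs had 77 probe sets, of which 44, of 24 genes, were not used above. Of these 44, 35 passed the strain test, against 77.0% of all probe sets. Their strain means correlated with those of the probe set used with a median r of 0.33, from -0.56 to 0.82, and 10 lay above 0.5. Plpp3 had the closest pair (0.82). The lowest r was that of a dim Hip1 probe set (mean 2.59), whose share was 5.32%. Further Hip1 probe sets, at means of 4.03, 3.05 and 2.90, had r = 0.61, 0.68 and 0.19. Their shares were 14.5%, 17.3% and -3.15%, against 49.8% for the brighter one used. The second Sh2b3 probe set (2.92) had r = 0.36 and a share of 9.87%, against 48.8%. Smg6 had a probe set of much the same brightness (3.70) with r = -0.43 to the one used, and another, dimmer one (3.43) with r = 0.43, so that its order of strains depends on the probe set. Low r was also seen for Trip4 (mean 5.22, r = 0.09), Mia3 (6.69 and 6.41, r = 0.18 and 0.16) and Camsap2 (7.44, r = 0.26). Sort1 had r = 0.32 and 0.11 at means of 4.70 and 4.58, while a dimmer probe set of Trip4 (3.30) had r = 0.58. The order of strains of these genes thus depends on the probe set too.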

How the data were processed

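Aortic RNA of 366 mice was measured with 1 Affymetrix array each, named HT_MG-430A in the labels and as the PM version of that design in the study's methods. The authors deposited normalized log2 intensities, and the submitters' processing notes name GCOS and RMA without versions. RMA corrects background, sets arrays to a common distribution and sums the probes of a probe set on the log2 scale, so that a total change of RNA cannot be seen. The files name no genome build. Array medians lay between 3.17 and 3.40, 0 value columns were left unmatched to a sample, and no 2 arrays were identical. Of 45141 probe sets, 28898 had 1 gene symbol, 551 several and 15692 none; only the first were named. Whether probes overlap bases that differ between strains was not tested.

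Tests were run with limma 3.58.1 in R 4.3.3 on all probe sets with no filter on dim ones, with Benjamini-Hochberg adjustment over all probe sets and a threshold of 0.05. They were an F test over strains with at least 2 arrays, over strains within a family and over families on strain means, contrasts of 5 progenitor F1 with the C57BL/6J F1, and regressions of strain means on marker scores. The share of variance is the intraclass correlation of mice of a strain. Replicates are the mice of a strain. Correlations over strains have permutation p-values from 100000 resamples. The number of arrays limits the precision, and no depth applies.

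The text names every homolog. It gives full statistics for the 10 largest shares, every call in a progenitor contrast (with array values for the 5 largest changes), the 5 smallest family p-values, the most positive and most negative homolog for each score and every same-locus pair, with the 2 largest and 2 smallest shares of other locus genes. The homologs and marker lists were chosen with earlier results of these data known. The comparison of BALB/cJ with BALB/cByJ, the striated muscle regression, and the smooth and striated muscle adjustments were chosen after the data were seen. The alternatives changed the arrays or strains used, the scaling, the probe set of a gene, the dim probe sets kept, the spread or weights and the replicates. The tests were tried on simulated data first. Promoter windows are from RefSeq on GRCm38.p6, with the one farthest upstream taken for each gene; Sort1, Trib1 and Abo had none in that table. Lesion area was not analysed here.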

Additional observations from a re-analysis of the deposited data

Results flagged for a closer look

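A second probe set of Nt5c2, not used in the comparisons above, read 4.23 ± 0.29 (SD, n = 4) in the NZB/BlNJ F1, with arrays at 3.92, 4.10, 4.32 and 4.60. In the other 100 strains its means lay between 2.28 and 2.81, and the highest array outside NZB/BlNJ read 3.05. The share of variance among strains of this probe set was 61.5% with NZB/BlNJ and 10.7% without it. On the Nt5c2 probe set used above, NZB/BlNJ had a mean of 4.12, the second lowest of the 101 strains, and the strain means of the 2 probe sets had r = -0.09. Nt5c2 was thus high in NZB/BlNJ on 1 probe set and low on the other.

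The F1 of the BALB/cJ and BALB/cByJ lines differed from each other in 4 homologs by a direct limma contrast, with log2 differences (BALB/cJ minus BALB/cByJ) of -0.55 for Bcas3, -0.53 for Trip4, -0.52 for Brap and -0.51 for Nt5c2. These arrays also differed in striated muscle markers, whose mean level was 9.45 in BALB/cJ and 4.82 in BALB/cByJ, and with the arrays adjusted by that score the differences were -0.54, -0.49, -0.40 and -0.43 in the same order, of which that of Bcas3 passed. The contrast was chosen after the values had been seen, and 2.25% of all genes passed it. No call was left with arrays centred on their median or with the BALB/c lines fitted alone. From 0 to 3 calls were left when single arrays were left out.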

How the results depend on the processing

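Strain differences held for 29 to 33 homologs under every alternative (29 of 29 with dim probe sets removed), with a median share from 24.5% to 33.9%, and for 29 to 31 with a mouse number left out. Family differences held for 5 to 7, and for 6 without any 1 BXH strain. The calls of Mia3 and Camsap2 were lost with probe sets averaged (adjusted p = 0.240 and 0.862) and that of Trib1 among strains with at least 3 arrays (0.0605). No paired analysis was possible because replicate numbers follow accession order and only name mice.

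With a mouse number left out, counts within families were 12 to 16 (BXD, 13 without replicate 2), 9 to 15 (AXB/BXA, 13 without replicate 2), 2 (CXB), 0 to 2 (BXH) and 26 to 30 (other inbred), and BXH gave 2 with arrays centred. Among progenitors, DBA/2J gave 1 without arrays high in hepatocyte markers, with probe sets averaged, in a fit of 2 groups and under the smooth muscle adjustment. A/J gave 1 in a fit of 2 groups and 6 under that adjustment, and BALB/cJ gave 2 with probe sets averaged. Against BALB/cByJ, BALB/cJ gave 1 under the striated muscle adjustment and 0 with arrays centred or in a fit of 2 groups, while against C57BL/6J the striated muscle adjustment kept every count. Leaving out an array gave 0 to 3 for A/J, 2 to 7 for BALB/cJ, 0 for BALB/cByJ, 2 to 4 for C3H/HeJ, 1 to 2 for DBA/2J and 0 to 3 for BALB/cJ against BALB/cByJ. Counts moved by over 1.5 times without C57BL/6J replicate 1 (DBA/2J), 3 or 5 (A/J) or 4 (BALB/cJ), A/J replicate 2 or 3, BALB/cJ replicate 1, 2 or 4, C3H/HeJ replicate 8, and, between the BALB/c lines, BALB/cJ replicate 1, 2 or 4 and BALB/cByJ replicate 1, 2 or 3.

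Counts with the adipocyte score were 1 without arrays high in hepatocyte markers, 6 with arrays centred, 12 among arrays within strains and 1 among strains with at least 3 arrays. With the hepatocyte score they were 11 without those arrays and 1 within strains, and with the macrophage score 1 among strains with at least 3 arrays. The share of all genes was not computed for these alternatives, nor for those of the progenitor contrasts. Slopes turned for Vamp8 on hepatocyte markers (0.165 without the high arrays, 0.00703 within strains), Wdr12 on macrophage (-0.0484 within strains) and Atxn2 on adipocyte markers (0.162 within strains).

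Of the same-locus pairs, 1 passed with arrays centred, with family means removed and among strains with at least 3 arrays, where Fes and Furin had adjusted p of 0.26, 0.11 and 0.068. Values of r near 0 changed sign: Psrc1 and Celsr2 to -0.101 without the arrays high in hepatocyte markers, -0.0201 centred and -0.134 with probe sets averaged; Atxn2 and Sh2b3 to -0.0311 without those arrays and -0.104 centred; Sort1 and Psrc1 to -0.0267 centred and -0.0572 with at least 3 arrays. Sort1 and Celsr2 went to -0.0254 centred and -0.0297 averaged, Brap and Sh2b3 to -0.0118 and -0.0139, and Vamp5 and Vamp8 to 0.0740 with family means removed and 0.0442 with at least 3 arrays. The cause of these changes was not tested.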
